A study of Homo sapiens with 4 samples.

Results

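The mitochondrial respiratory chain subunits encoded in the nucleus were compared between U937-AE and U937-Mt cells. Members were taken by annotated gene symbol: the NDUF subunits of complex I, the SDH subunits of complex II, the UQCR subunits and CYC1 of complex III, the COX4 to COX8 subunits of complex IV and the ATP5 subunits of complex V. This gave 77 of the 19775 genes that the array names: 32 of complex I, 3 of complex II, 7 of complex III, 17 of complex IV and 18 of complex V. The rule uses symbols and no measured value. The symbol patterns do not cover every subunit, and 2 pseudogenes and 3 non-coding genes that share these symbols were left out. Subunits found only on probe sets with several gene symbols, such as NDUFS8, were not counted either.

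The respiratory chain sits in the inner mitochondrial membrane. Complexes I and II pass electrons from NADH and succinate to coenzyme Q, complex III passes them on to cytochrome c, and complex IV hands them to oxygen, while complexes I, III and IV pump protons that complex V, the ATP synthase, uses to make ATP. Most subunits are encoded in the nucleus and a small set in the mitochondrial genome, so that the complexes are put together from the products of both.

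The human U937 line, which the paper groups with myeloid leukemic lines, resembles monocyte precursors. The cells called U937-AE are 1 clone (AML1/ETO-HA#9), stably transfected with HA-tagged AML1/ETO in the plasmid pSG-MtNEO, behind a zinc-inducible mouse metallothionein promoter, and those called U937-Mt are an uncloned population that carries the plasmid without insert. Both had been kept in 100 µM ZnSO4 for 8 h, so the zinc is shared by both groups. For each cell line, equal amounts of 3 RNA extractions had been mixed, and the pool was read on 2 HG-U133 Plus 2.0 arrays (Affymetrix). Each cell line is thus 1 sample with 2 copies of the measurement, precision is limited by the number of arrays, and the spread given below covers hybridization only. No p-value is given, and an effect of the induced protein and an effect of picking 1 clone cannot be told apart.

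Signals are intensities of probe sets in the units of the array. A gene was read from its brightest probe set, signals under the array's median were raised to that median (the floor), and the difference is the mean log2 signal of U937-AE minus that of U937-Mt, with the lowest and highest of the 4 comparisons of single arrays in parentheses. A gene was called higher or lower when all 4 comparisons passed 1.5-fold in that direction. A gene was taken as measured when its mean reached the floor in at least 1 pool, which held for 12934 genes and 74 of the 77 members.

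Of 7 probe sets of RUNX1T1 (ETO), 1 was called higher, with signals of 1362 and 1299 in U937-AE versus 8.6 and 7.6 in U937-Mt. The brightest on average was not called (-0.42, from -1.09 to 0.24), and the other 5 were under the floor on all arrays. The 4 myelomonocytic and 3 leukocyte markers found on the array were all measured, of which LYZ, MPO, CSF3R and CORO1A were called lower and PTPRC higher, and 2 of 6 markers of other cells reached the floor. The correlation of log2 signals was 0.94 between the U937-AE copies and 0.92 between the U937-Mt copies, against 0.91 to 0.92 across the cell lines. All arrays had been scaled to the same trimmed mean, yet the median signal was 119.5 and 129.7 in U937-AE versus 146.8 and 153.6 in U937-Mt, and the mean log2 signal of 18 hybridization spike-in probe sets was lower in U937-AE, by a factor of 1.27. With spike-in scaling, every mean difference given below is 0.34 higher on the log2 scale, while the single comparisons in parentheses shift by differing amounts. The ratio of 3' to 5' signal of ACTB was 1.21 and 1.25 in U937-AE versus 1.43 and 1.33 in U937-Mt. The part of these differences in the results was not tested.

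Of the 74 measured members, 0 were called higher and 2 were called lower: ATP5F1A, the alpha subunit of the ATP synthase, and CYC1, cytochrome c1 of complex III. Over all measured genes, 336 (2.6%) were called higher and 791 (6.12%) lower, against which 0 and 2 of the 74 members stand. With spike-in scaling, 1369 genes were higher and 290 lower, which turns the share of calls that were higher to 82.5% against 29.8% in the deposited scaling, and 3 members were then higher (ATP5IF1, COX8C and NDUFA1) and 0 lower. With the arrays shifted to the same median, 2 members were higher (ATP5IF1 and COX8C) and 0 lower, against 7.04% and 2.99% of all measured genes. Both lower calls were made with the deposited scaling and with quantile normalization, and with neither of the other scalings.

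The members as a group lay close to 0. Their median difference was -0.03 (single comparisons -0.06 to 0.02), against -0.10 over all measured genes, which put it 0.07 above that median with the deposited scaling and 0.0012 above it with quantile normalization. The interquartile range of the members was 0.29 on the log2 scale, against 0.55 for all measured genes. Among the related lists read below, it was 0.29 for mitochondrial ribosomal proteins and 0.31 for assembly factors. For electron carriers and coenzyme Q synthesis it was 0.48. The median size of a member's difference between the pools was 0.15, against 0.11 between the U937-AE copies and 0.08 between the U937-Mt copies, and 54 members differed by less than 0.25 in either direction. The 4 arrays did not overlap between the cell lines for 21 members that were higher and 28 that were lower in U937-AE, near the background of 25.4% and 38.5% of all measured genes. With spike-in scaling these counts were 60 and 5, where 6614 and 1610 of all 12934 measured genes were higher and lower without overlap. The members were well above the floor, since 73 exceeded it on every array and 68 had a signal above 1000 on every array.

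**Figure D1:**
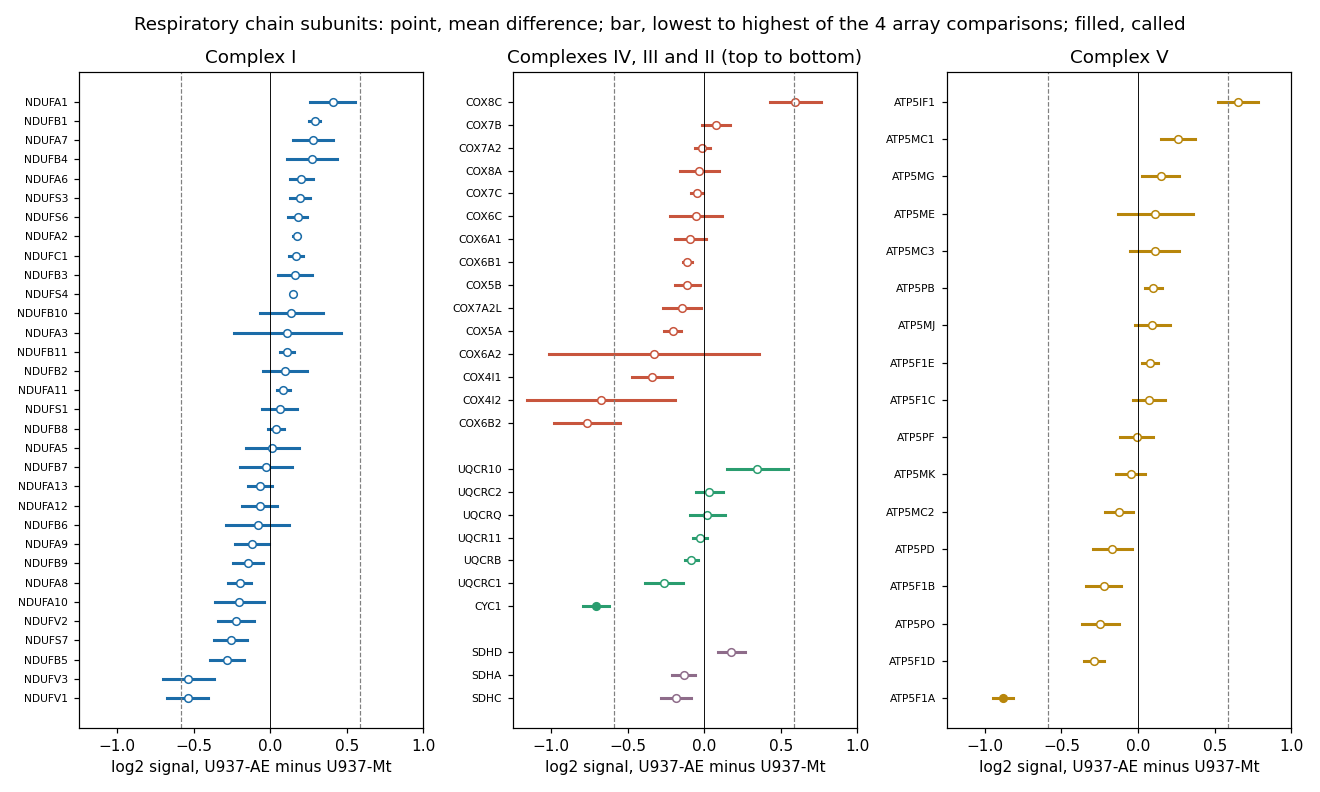
Difference in log2 signal, U937-AE minus U937-Mt, of the 74 measured subunits by complex. Points are mean differences, bars run from the lowest to the highest of the 4 array comparisons, dashed lines mark 1.5-fold, and only the filled points of ATP5F1A (-0.88) and CYC1 (-0.71) passed the line in all comparisons.

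In complex I, 0 of 32 members were called. The largest negative differences were those of NDUFV1 and NDUFV3. NDUFV1, which holds the flavin mononucleotide where NADH gives up its electrons, had signals of 4869 and 5532 in U937-AE versus 7770 and 7320 in U937-Mt, a difference of -0.54 (-0.67 to -0.40). NDUFV3, an accessory subunit of the same module, gave 1135 and 960.8 in U937-AE versus 1562 and 1463 in U937-Mt, a difference of -0.53 (-0.70 to -0.37). For both genes the U937-AE arrays were below both U937-Mt arrays, but the smallest comparison missed 1.5-fold. NDUFV2, the iron-sulfur partner of NDUFV1, had a smaller difference of -0.22 (-0.34 to -0.10), and 2 subunits lay between, NDUFB5 of the membrane arm at -0.28 and the core subunit NDUFS7 at -0.26.

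A second probe set of NDUFV3 did pass the rule: it gave 279.6 and 346 in U937-AE versus 579.9 and 634.4 in U937-Mt, a difference of -0.96 (-1.18 to -0.75). Both NDUFV3 probe sets thus ran in the same direction, with the dimmer one further apart. When U937-AE copy 1 was left out, the brighter probe set was called lower too (-0.65).

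The highest values in complex I were those of NDUFA1 and NDUFB1, accessory subunits of the membrane arm. NDUFA1 gave 15828 and 16878 in U937-AE versus 13200 and 11492 in U937-Mt, a difference of 0.41 (0.26 to 0.55). NDUFB1 gave 7048 and 6740 in U937-AE versus 5643 and 5618 in U937-Mt, a difference of 0.29 (0.26 to 0.33). The arrays did not overlap for either gene, and neither reached the rule with the deposited scaling. NDUFA7 followed closely at 0.28. NDUFA2, an accessory subunit of the matrix arm, gave 5575 and 5746 in U937-AE versus 5035 and 5015 in U937-Mt, and its 4 comparisons lay within 0.15 to 0.20. The 5 core subunits measured had a median of -0.22 and the 27 accessory subunits one of 0.10, and over the whole complex 13 members (40.6%) were higher without overlap, 9 (28.1%) lower and 10 overlapped, against 25.4% and 38.5% of all measured genes. With spike-in scaling the counts were 26 higher and 2 lower, against 6614 and 1610 of all 12934 measured genes. With quantile normalization they were 10 higher and 13 lower, against 3568 and 4074 of 12938 genes.

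Complex II, which also serves the tricarboxylic acid cycle, had members on both sides of 0. SDHC, a membrane anchor, had a difference of -0.18 (-0.28 to -0.08), SDHA, the flavoprotein, one of -0.13 (-0.21 to -0.06), and SDHD, the other anchor, one of 0.18 (0.09 to 0.26). None passed 1.5-fold in any comparison, and the measured probe sets of SDHC alone ran from -0.35 to 0.14.

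In complex III, CYC1 was the member called. Cytochrome c1 carries the heme from which electrons leave the complex for cytochrome c. Its signals were 4751 and 4599 in U937-AE versus 7950 and 7310 in U937-Mt, a difference of -0.71 (-0.79 to -0.62). Both U937-AE arrays lay below both U937-Mt arrays, at 61.3% of their level on average, and the smallest of the 4 comparisons was 1.54-fold. CYC1 was also called lower when each of the 4 arrays was left out in turn, but no longer with spike-in scaling (-0.36).

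The other 6 members of complex III were not called by their brightest probe set. UQCRC1, a core protein with no redox group, had a difference of -0.26 (-0.38 to -0.14). UQCR10, a small membrane subunit, gave 12369 and 13262 in U937-AE versus 11165 and 9083 in U937-Mt, a difference of 0.35 (0.15 to 0.55). UQCRC2, UQCRQ, UQCRB and UQCR11 had values of 0.03, 0.02, -0.08 and -0.02. UQCR11 has a second, dim probe set that was called higher, with 443.1 and 506.7 in U937-AE versus 259.4 and 244.1 in U937-Mt (0.91, from 0.77 to 1.05). The brighter UQCR11 probe set gave 10583 and 10777 in U937-AE versus 11113 and 10623 in U937-Mt, and these overlapped.

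In complex IV, cytochrome c oxidase, 0 of the 15 measured members were called. The 10 ubiquitous subunits had a median of -0.07 and ran from -0.34 to 0.08, and 5 of them were lower without overlap and 0 higher, where 38.5% and 25.4% of all measured genes were. With spike-in scaling, 11 members of the whole complex were higher without overlap and 1 lower, against 6614 and 1610 of all 12934 measured genes. COX4I1, the regulatory subunit 4, gave 12791 and 13826 in U937-AE versus 17705 and 15999.5 in U937-Mt, a difference of -0.34 (-0.47 to -0.21). Its other measured probe set gave -0.51 (-0.58 to -0.44), again with no overlap. With spike-in scaling the difference of the brightest COX4I1 probe set was 0.0037, so the direction of that probe set rests on the scaling. The other one, at -0.51, lies further below 0 than the 0.34 that spike-in scaling adds. COX7B was the member with the highest value among the ubiquitous subunits, 0.08, and its arrays overlapped.

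COX5B is a structural subunit of complex IV whose probe sets disagreed. The brightest gave 11770 and 12238 in U937-AE versus 13458 and 12445 in U937-Mt, a difference of -0.11 (-0.19 to -0.02), and a pair of others gave -0.21 and -0.25. The fourth gave 263.5 and 252.7 in U937-AE versus 29.9 and 41.1 in U937-Mt, where both arrays were under the floor, and it was called higher (0.78, from 0.72 to 0.84, against the floor). The 3 bright probe sets were therefore slightly lower and the dim one higher in U937-AE, and which transcript the dim one reads was not analysed here.

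Isoforms that are known mainly from particular tissues were dimmer or under the floor. COX8C, known from testis, gave 1679 and 1428 in U937-AE versus 1058 and 991.4 in U937-Mt, a difference of 0.60 (0.43 to 0.76). COX6B2, also known from testis, gave 148 and 189.1 in U937-AE versus 276.2 and 291.9 in U937-Mt, a difference of -0.76 (-0.98 to -0.55). COX4I2, known from lung, gave 277.1 and 218 in U937-AE versus 316.8 and 486.4 in U937-Mt, a difference of -0.68 (-1.16 to -0.19). The arrays did not overlap for any of these, and each missed 1.5-fold in at least 1 comparison. COX6A2, a heart and muscle isoform, gave 107.8 and 188.2 in U937-AE versus 140.2 and 241.1 in U937-Mt and overlapped, with 1 array of each pool under the floor. COX7A1 and COX7B2 were under the floor in both pools. The genes COXFA4 and COXFA4L2, formerly NDUFA4 and NDUFA4L2, do not match by their annotated symbols and are not counted. COXFA4 gave 12276 and 12792 in U937-AE versus 11925 and 12302 in U937-Mt, and COXFA4L2 gave 151.8 and 77.8 in U937-AE versus 276.3 and 172.7 in U937-Mt.

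**Figure D2:**
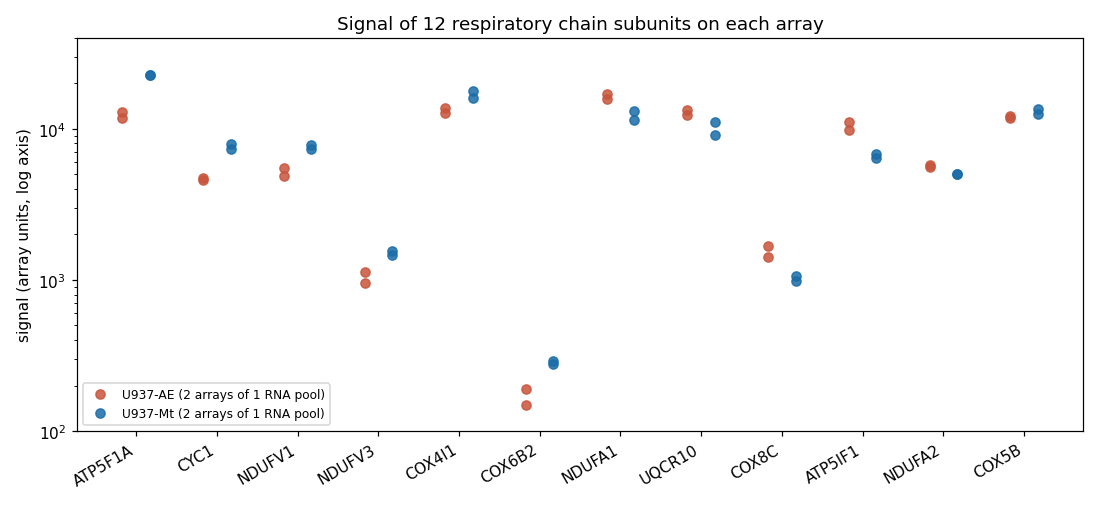
Signal of 12 subunits on each array (log axis, array units), U937-AE on the left and U937-Mt on the right of each pair, 2 arrays of 1 RNA pool each. ATP5F1A, which was called lower, had 11870 and 12944 in U937-AE versus 22845 and 22838 in U937-Mt.

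In complex V, ATP5F1A was called lower and had the largest difference of all measured members. It encodes the alpha subunit, which alternates with the catalytic beta subunit in the F1 head. Its signals were 11870 and 12944 in U937-AE versus 22845 and 22838 in U937-Mt, a difference of -0.88 (-0.94 to -0.82). The U937-AE arrays were at 54.3% of the U937-Mt level on average, and the smallest of the comparisons was 1.76-fold. The call was also made when each of the 4 arrays was left out in turn, and was absent with spike-in scaling (-0.54). It rests on 1 probe set, since the other one of the gene was under the floor in both pools.

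The beta subunit ATP5F1B, which carries the catalytic sites, gave 21613 and 23054 in U937-AE versus 27327 and 24855 in U937-Mt, a difference of -0.22 (-0.34 to -0.11). ATP5F1D, the delta subunit of the central stalk, had -0.29 (-0.35 to -0.22), while the gamma and epsilon subunits ATP5F1C and ATP5F1E had 0.07 and 0.08. The alpha subunit thus differed more than the other 4 measured F1 subunits. The 11 measured subunits of the membrane part and the stalks ran from -0.25 (ATP5PO) to 0.26 (ATP5MC1, a c-ring subunit). Their median was 0.09, while their medians in the single comparisons ran from -0.08 to 0.05. ATP5MF was under the floor by its only probe set with 1 symbol, while a probe set that lists it beside another gene was above the floor on every array, so the gene itself is not described here.

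ATP5IF1, the inhibitor protein that blocks ATP hydrolysis by the synthase when the membrane potential falls, had the highest value of all measured members. Its brightest probe set gave 11076 and 9818 in U937-AE versus 6444 and 6844 in U937-Mt, a difference of 0.65 (0.52 to 0.78). The arrays did not overlap, and the smallest comparison missed 1.5-fold. It was called higher without U937-AE copy 2 (0.74) or U937-Mt copy 2 (0.69). Its other probe sets gave 0.14 (0.02 to 0.26) and -0.32 (-0.41 to -0.23), so the 3 probe sets of ATP5IF1 did not share a direction with the deposited scaling. A second probe set of ATP5PO also departed from its gene, with 3959 and 3175 in U937-AE versus 2290 and 2087 in U937-Mt (0.70, from 0.47 to 0.92), where the bright one gave -0.25.

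Over all 151 probe sets of the members, 126 were measured, of which 2 were called higher (COX5B and UQCR11) and 3 lower (ATP5F1A, CYC1 and NDUFV3). The background per probe set was 2.66% called higher and 5.37% lower among 23493 measured. For the 32 members with more than 1 measured probe set, the differences within a gene spanned a median of 0.27, the span exceeded 0.5 in 5 of them, and in 15 the probe sets had different signs. This span runs from the lowest to the highest measured probe set of a gene, dim ones included. It is another measure than the median size of a member's difference between the pools. That was 0.15 by the brightest probe sets of all 74 measured members. A further 15 probe sets carry several symbols, of which at least 1 fits the symbol patterns, and name no gene here. Of these, 11 were measured, 0 were called, and they ran from -0.56 to 0.15. Some list only genes that are not members, such as NDUFS8, to which the lowest value belongs.

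**Figure D3:**
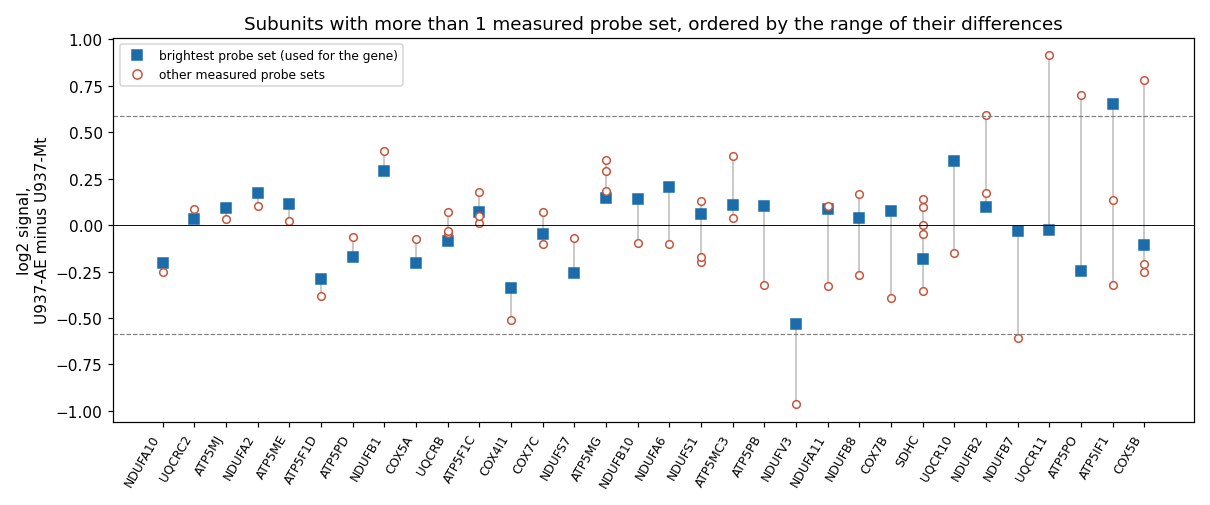
Difference in log2 signal, U937-AE minus U937-Mt, of every measured probe set of the 32 subunits that have more than 1, ordered by their span. Squares are the brightest probe sets, circles the others, dashed lines mark 1.5-fold, and the span reaches 1.04 for COX5B.

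The subunits encoded in the mitochondrial genome, which join the same complexes, were measured for 7 of 13 genes listed, and 0 were called. ATP6, of the ATP synthase, gave 28205 and 31818 in U937-AE versus 45196 and 38098 in U937-Mt, a difference of -0.47 (-0.68 to -0.26). COX2, of cytochrome c oxidase, gave 32326 and 37661 in U937-AE versus 50603 and 45062 in U937-Mt, a difference of -0.45 (-0.65 to -0.26). These signals are near the top of the table, whose highest is 62176. ND4, ND2, COX3 and COX1 had differences of -0.40, -0.40, -0.20 and -0.19. Thus 6 of 7 were lower without overlap, where 38.5% of all measured genes were. ND6, which is read from the opposite strand of the mitochondrial genome to the others, was the exception, with 2330 and 2471 in U937-AE versus 1992 and 2187 in U937-Mt (0.20, from 0.09 to 0.31). The median of the 7 was -0.40 with the deposited scaling and -0.13 with the arrays shifted to the same median. It was -0.05 with spike-in scaling and -0.02 with quantile normalization. The median was thus below 0 with each scaling, and its size rests on the scaling. With quantile normalization 2 were lower and 2 higher without overlap, against 4074 and 3568 of 12938 genes. With spike-in scaling 0 were lower and 2 higher without overlap, against 1610 and 6614 of 12934 genes. With the arrays shifted to the same median 2 were lower and 1 higher, against 2213 and 5957 of 12934 genes.

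Promoter sequences of 300 bases, from 250 before to 50 after the start in RefSeq (GRCh38.p14), matched 65 of the 77 members, and were searched on both strands for short motifs of factors known to act at respiratory genes and for the AML1 core. The NRF1 letters GCATGCGC occurred in 12 members (18.5%), against 3.27% of all 27305 promoters and 4.26% of the 15843 promoters of protein-coding genes. The ETS letters CCGGAAG, of the kind that GABP binds, occurred in 18 (27.7%), against 10.7% of all and 14.2% of protein-coding ones, and the YY1 letters AAGATGG in 15 (23.1%), against 6.06% and 6.4%. The AML1 letters TGTGGT or TGCGGT occurred in 17 (26.2%), against 19.4% of all and 18.6% of protein-coding ones. These are matches of letters, not binding sites. The 17 members with the AML1 letters had a median difference of 0.08, of 17 measured, and the 47 measured members without them one of 0.01.

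The promoters of the called ATP5F1A, of NDUFV1 and NDUFA1 from the ends of complex I, and of COX5B, the member with discordant probe sets, are shown 5′ to 3′ in the direction of the gene, with matches to the motifs above in capitals.
ATP5F1A, chr18:46104178-46104477, minus strand: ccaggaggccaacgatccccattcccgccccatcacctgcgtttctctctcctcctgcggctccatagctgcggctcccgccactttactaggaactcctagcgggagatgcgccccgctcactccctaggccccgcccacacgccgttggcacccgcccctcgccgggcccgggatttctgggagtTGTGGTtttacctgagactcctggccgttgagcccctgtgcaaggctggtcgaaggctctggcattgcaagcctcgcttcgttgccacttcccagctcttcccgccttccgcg
NDUFV1, chr11:67606686-67606985, plus strand: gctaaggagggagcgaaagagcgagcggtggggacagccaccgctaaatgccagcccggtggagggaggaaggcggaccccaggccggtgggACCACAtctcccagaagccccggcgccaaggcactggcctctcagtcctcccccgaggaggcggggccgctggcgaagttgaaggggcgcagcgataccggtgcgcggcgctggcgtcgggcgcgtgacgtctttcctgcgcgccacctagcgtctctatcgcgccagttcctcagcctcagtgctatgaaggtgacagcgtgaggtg
NDUFA1, chrX:119871582-119871881, plus strand: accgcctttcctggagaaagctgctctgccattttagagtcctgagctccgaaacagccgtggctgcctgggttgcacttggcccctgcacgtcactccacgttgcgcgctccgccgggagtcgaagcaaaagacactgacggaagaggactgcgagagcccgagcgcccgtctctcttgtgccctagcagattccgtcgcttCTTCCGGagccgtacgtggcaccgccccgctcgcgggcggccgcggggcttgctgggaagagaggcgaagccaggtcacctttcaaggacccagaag
COX5B, chr2:97645812-97646111, plus strand: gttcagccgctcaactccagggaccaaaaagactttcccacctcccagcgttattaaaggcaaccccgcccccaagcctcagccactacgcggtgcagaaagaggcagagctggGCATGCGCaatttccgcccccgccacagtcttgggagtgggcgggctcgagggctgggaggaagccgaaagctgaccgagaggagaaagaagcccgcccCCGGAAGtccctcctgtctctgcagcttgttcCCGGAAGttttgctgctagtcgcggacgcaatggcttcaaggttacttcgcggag
The capitals are the AML1 letters in ATP5F1A and, on the other strand, in NDUFV1, the ETS letters on the other strand in NDUFA1, and in COX5B the NRF1 letters followed by 2 copies of the ETS letters.

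Genes that build, supply or regulate the chain were read from lists of related functions. Of 51 measured assembly factors 0 were called, with a median of -0.03 and a range of -0.62 to 0.68. At the upper end stood PET100, an assembly factor of complex IV, with 3617 and 2911 in U937-AE versus 1928 and 2115 in U937-Mt (0.68, from 0.46 to 0.91). Of 19 electron carriers and coenzyme Q synthesis genes 0 were called, with a median of -0.09. CYCS, cytochrome c itself, which takes electrons from CYC1, gave 23182 and 24974 in U937-AE versus 26663 and 24441 in U937-Mt and overlapped.

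Of 19 regulators of mitochondrial biogenesis 0 were called, and 7 (36.8%) were higher without overlap and 1 (5.26%) lower, against 25.4% and 38.5% of all measured genes. NRF1, the factor whose letters were searched above, gave 916.2 and 933 in U937-AE versus 691.7 and 734.1 in U937-Mt (0.38, from 0.32 to 0.43). GABPA, the DNA-binding subunit of GABP, gave 1251 and 1131 in U937-AE versus 921.8 and 927.7 in U937-Mt (0.36, from 0.29 to 0.44). TFAM, which packages and transcribes mitochondrial DNA, had a value of 0.12 and overlapped. The NRF1 and GABPA arrays were thus apart by less than 1.5-fold.

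The tricarboxylic acid cycle (12 measured) and mitochondrial import and carriers (26 measured) had 0 calls each and medians of -0.06 and 0.03. Of 72 mitochondrial ribosomal proteins, which translate the mitochondrially encoded subunits, 1 was called: MRPL14 was higher, with 2580 and 2464 in U937-AE versus 1631 and 1475 in U937-Mt (0.70, from 0.60 to 0.81). Their median was 0.03. By complex, the medians of the respiratory chain members were 0.07 for I, -0.13 for II, -0.02 for III, -0.11 for IV and 0.07 for V. Complexes I and V both lay 0.17 above the median of all genes with the deposited scaling, and 0.04 and 0.05 above it with quantile normalization. Over the single comparisons the median of complex I ran from -0.03 to 0.12. That of complex V ran from -0.08 to 0.03, which is below its 0.07.

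**Figure D4:**
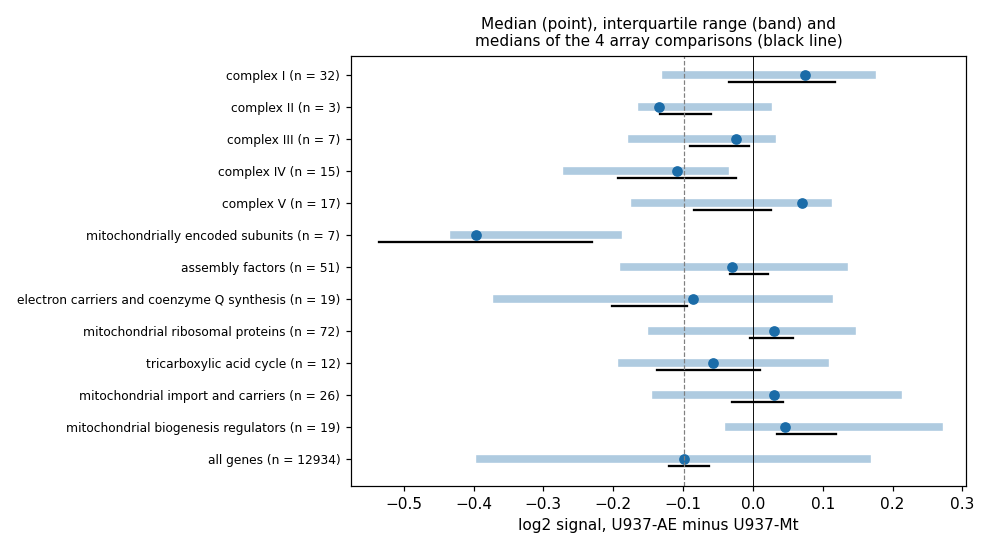
Median difference in log2 signal, U937-AE minus U937-Mt, by complex and related list, with the number of measured genes. Bands show the interquartile range, black lines run over the medians of the 4 array comparisons, and the dashed line is the median of all genes (-0.10). The mitochondrially encoded subunits lie lowest at -0.40 with the deposited scaling. They keep this position with spike-in scaling (-0.05) and lose it with quantile normalization (-0.02).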

How the data were processed

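The deposited values are signal intensities, 1 for each probe set on each array, which the authors computed with GCOS at default settings (version not given in the sources used here). This scales every array to a common trimmed mean. The table has 54675 probe sets, 62 of them controls, and 0 columns of other samples. Probe sets with 1 gene symbol (41091) were kept, symbols being updated through the gene identifier, and 1801 with several symbols named no gene. The floor was the 50th percentile of each array. The labels number the arrays as replicates, and the study's methods describe copies of 1 pool, so no test between the cell lines stands behind a call. The p-values of limma and the methods' t-test, run as alternatives, cover the spread between copies only. Some subunits are not reported here.

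Named genes are the members called by any probe set, members in the study's tables of regulated genes, the largest differences per complex, tissue-restricted isoforms and called genes of the related lists; others were chosen after their values were seen (NDUFV2, ATP5F1B, PET100, NRF1, GABPA and TFAM among them). Members and lists were chosen with earlier results of these data known. The call rule was tested on simulated data. Alternatives were other scalings, floors, thresholds and probe set choices, limma, the methods' t-test, a replicate block and leaving out each array. Python 3.11.15, numpy 2.4.6, pandas 2.3.3, matplotlib 3.10.9, R 4.3.3 and limma 3.58.1 were used.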

Additional observations from a re-analysis of the deposited data

How the results depend on the processing

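Members called lower numbered 0 when arrays were shifted to the same median, scaled to the spike-ins or held to 2-fold. They also numbered 0 with limma and the array number as a replicate block. At an unadjusted p under 0.05 and 1.5-fold, that limma fit had 3 members lower and 2 higher, against 1560 and 601 of 12934 genes. The count lower was again 0 by the methods' t-test at its threshold and after Benjamini-Hochberg adjustment. At an unadjusted p under 0.05 with no limit on the fold, that t-test had 5 lower and 5 higher, against 1743 and 1364 genes. Members called lower numbered 4 with the mean of the arrays above 1.5-fold (COX4I2 and COX6B2 added), and 2 to 4 with an array left out. Members called higher numbered 2 with the same median (ATP5IF1 and COX8C), 3 with spike-ins, 2 with the mean above 1.5-fold, 2 without probe sets ending in _x_at or _s_at (COX5B and UQCR11), 1 with limma without a block (ATP5IF1), and 0 to 2 with an array left out. Without U937-AE copy 2 both counts changed (2 higher, 4 lower, with NDUFV1 and COX6B2 added), without U937-Mt copy 1 4 were lower, without U937-Mt copy 2 1 was higher, and without U937-AE copy 1 3 were lower (NDUFV3 added).

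The members' median was 0.24 with the same median, 0.32 with spike-ins and between -0.057 and 0.018 with an array left out. By complex the medians reached 0.42 for I, 0.21 for II, 0.32 for III, 0.23 for IV and 0.41 for V with spike-ins. Over all genes, counts of calls ran from 0 to 1369 higher and from 3 to 1763 lower. Of all measured genes, 7.04% were higher and 2.99% lower with the same median, and 10.6% and 2.24% with spike-ins. With the mean above 1.5-fold these shares were 4.82% and 13.6%, at 2-fold 0.758% and 2.03%, and with limma without a block 3.07% and 6.36%. Without probe sets ending in _x_at or _s_at they were 2.61% and 5.98%. With an array left out they ran from 3.36% to 4.26% higher and from 8.66% to 11.9% lower. With the floor at the 75th percentile the second probe sets of COX5B and UQCR11 turned to -0.10 and -0.042, where raising the floor lifts dim signals to it. Without probe sets ending in _x_at or _s_at ATP5F1A was read from a probe set under the floor (-0.27), and with the mean over probe sets it was not called (-0.58). Same-numbered arrays hardly deviated together (correlation of their deviations 0.05). The replicate block of same-numbered arrays only gave 3 members lower and 0 higher, against 7.75% and 3.08% of all measured genes. Of 280 values of 16 named genes and probe sets, 231 kept their call, and 2 that had been called changed sign. ATP5IF1 and UQCR10, which were not called, read -0.32 and -0.15 without probe sets ending in _x_at or _s_at, and COX4I1 read 0.0037 with spike-ins. Array copies limit what these counts can show.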
